A study of Mus musculus with 18 samples.

Results

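The nuclear-encoded subunits of oxidative phosphorylation were taken as the mouse genes whose symbols follow the naming of complex I (Nduf with a, b, c, s or v and a number), complex II (Sdha to Sdhd), complex III (Uqcr), complex IV (Cox4 to Cox8) and complex V (Atp5). Of 27179 gene identifiers in the counts, 91 had such a symbol. The 5 pseudogenes among them were dropped (Atp5c1-ps, Uqcrh-ps1, Ndufa11b, Ndufs5-ps and Ndufs6b), which left 86 genes: 37 of complex I, 4 of complex II, 8 of complex III, 20 of complex IV and 17 of complex V. Ndufa4 and its relative Ndufa4l2 carry a complex I name but were counted with complex IV, where the Ndufa4 protein resides. A filter on low counts kept 80 of the 86. The 6 others had between 0 and 74 counts over the 18 libraries together: Uqcr11, Ndufa4l2, Cox6a2, Cox7b2, Cox8b and Cox8c.

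These proteins build the respiratory chain of the inner mitochondrial membrane. Complexes I and II pass electrons from NADH and succinate to ubiquinone, complex III passes them to cytochrome c and complex IV to oxygen. Complexes I, III and IV pump protons, and complex V, the ATP synthase, uses their return to make ATP. Complexes I, III, IV and V also hold subunits encoded by mitochondrial DNA, so nuclear and mitochondrial transcripts have to be matched, while complex II is nuclear throughout. Several complex IV subunits have a widely expressed isoform and one restricted to muscle, lung, testis or hypoxic cells.

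Bulk RNA sequencing was done on mammary epithelial cells sorted from 14-week-old female mice as mature luminal (ML) cells, luminal progenitors (LP) and basal cells. The KO mice are labelled Brca2KO in the genotype field, and the series design gives MMTV-cre, deleted Brca2 and 1 deleted copy of Trp53. The WT mice are labelled wildtype. Each population was sampled in 3 KO mice and 3 WT mice, which makes 18 libraries in 6 groups. The strain field names the MMTVcre transgene, Brca2(fl/fl) and Trp53(fl/+) in KO and WT libraries alike, so the labels do not settle which of these alleles the WT mice carried. Titles use the word knockdown for the KO mice. MMTV-cre is a transgene in which the mouse mammary tumour virus promoter drives Cre, mainly in mammary epithelium, and the share of cells in which it recombined is not stated by population. In bulk libraries, fewer cells of a type and less RNA per cell cannot be told apart.

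Total counts were 14.15 to 39.19 M in basal KO against 12.08 to 33.49 M in basal WT, 22.42 to 32.72 M in LP KO against 9.29 to 16.17 M in LP WT, and 8.76 to 30.55 M in ML KO against 5.97 to 20.33 M in ML WT. Trp53 levels in CPM, the counts scaled to a common library total, ranged over 7.25 to 9.05 in LP KO libraries, against 67.1 to 150.0 in those of LP WT. They ranged over 13.7 to 35.8 in basal KO, against 57.0 to 88.7 in basal WT, and over 13.6 to 17 in ML KO, against 39.6 to 49.2 in ML WT. Trp53 was called lower in each population, with log2 differences of -3.6 ± 0.35 in LP (SE, adjusted p = 5.3e-06), -1.57 ± 0.33 in ML and -1.72 ± 0.33 in basal cells. As a point estimate the fall in each population, largest in LP, exceeds what the loss of 1 of 2 equally expressed copies would give. Whether it does so beyond its error was not tested. The series design gives 1 deleted copy. Brca2 was 4.97 to 24.7 CPM in KO libraries and 4.63 to 35.6 CPM in WT libraries and was called in none. Its counts cover the whole gene and so do not test the loss of deleted exons. Summed levels of 8 ML markers were 197 to 411 CPM in LP KO against 611 to 948 CPM in LP WT, while the 8 LP markers summed to 7204 to 11598 CPM in LP KO and 8075 to 8258 CPM in LP WT. Single LP markers differed in direction. Ltf was higher, with 1764 to 2992 CPM in LP KO against 508 to 1598 CPM in LP WT. Aldh1a3 was lower, with 123 to 234 CPM against 267 to 787 CPM. The other LP markers overlapped between the genotypes. ML KO libraries departed from their label: 10 basal markers summed to 718 to 882 CPM in ML KO against 22.7 to 30.1 CPM in ML WT, the LP markers to 681 to 2258 CPM against 157 to 253 CPM, and the ML markers to 1673 to 4380 CPM against 6995 to 9659 CPM. ML KO mouse 1 held more of the LP markers (2258 CPM) than of the ML markers (1673 CPM). In ML KO mice 2 and 3 the LP markers were at 681 and 977 CPM and the ML markers at 4157 and 4380 CPM. The basal sum in ML KO was mostly the keratins Krt5, Krt14 and Krt17, each at 141 to 316 CPM. Acta2 had 20.5 to 30.1 CPM in ML KO, 2.06 to 5.82 CPM in ML WT and 4525 to 4601 CPM in basal KO. Cnn1 had 1.63 to 1.88 CPM in ML KO, 0.918 to 1.43 CPM in ML WT and 426 to 575 CPM in basal KO. Of other cell types, the summed levels in LP KO against LP WT were 5.38 to 11 against 3.49 to 9.62 CPM for 6 immune markers, with Cd3e at most 0.25 CPM, and 9.54 to 23.3 against 4.32 to 10.1 CPM for 6 striated muscle markers, mostly Mb, with Ckm at most 0.0659 CPM. The 4 erythroid markers summed to 3.92, 3.07 and 14.9 CPM in LP KO against 0.987 to 2.78 CPM in LP WT, with 1 of 3 tested called higher. The 5 endothelial and pericyte markers summed to 10.7 to 23.3 CPM in LP KO against 24.5 to 38.5 CPM in LP WT, with 1 called lower. Neither of these 2 sums overlapped between the genotypes. The part of these markers in the LP results was not tested. LP KO mouse 3 stood apart in another way. A trend on gene length was fitted to each library's log2 deviations from the mean of each gene over the 18 libraries. In LP KO mouse 3 the trend at 500 bases was 0.68 above that at 3000 bases. In the other 17 libraries this difference was -0.33 to 0.11. The tested subunit genes are short, with a median of 649 bases against 2678 bases over all 16466 genes tested, and 57 of the 80 are under 1000 bases. By RefSeq gene positions 20 of the 86 overlap another counted gene, with which they may share reads. Results in LP are therefore also given without this mouse and with a trend on gene length removed from each library.

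The promoter windows of 4 genes are shown because these genes were called higher in LP KO than in LP WT, with or without LP KO mouse 3, and because they hold the letters of motifs known from respiratory gene promoters. RefSeq windows on GRCm38.p6, reaching 250 bases before and 50 after the annotated start, were found for 69 of the 86 genes. Each line below gives 250 bases before the start and the first 30 after it, 5′ to 3′ on the gene's strand, with motif matches on either strand in capitals.
Ndufa11, chr17:56717512-56717791, plus strand: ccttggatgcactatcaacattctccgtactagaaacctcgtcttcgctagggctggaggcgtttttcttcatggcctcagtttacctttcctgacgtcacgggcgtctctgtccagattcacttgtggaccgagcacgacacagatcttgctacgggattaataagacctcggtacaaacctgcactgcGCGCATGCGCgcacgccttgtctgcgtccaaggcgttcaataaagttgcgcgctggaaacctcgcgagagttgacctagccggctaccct
Atp5k, chr5:108434370-108434649, minus strand: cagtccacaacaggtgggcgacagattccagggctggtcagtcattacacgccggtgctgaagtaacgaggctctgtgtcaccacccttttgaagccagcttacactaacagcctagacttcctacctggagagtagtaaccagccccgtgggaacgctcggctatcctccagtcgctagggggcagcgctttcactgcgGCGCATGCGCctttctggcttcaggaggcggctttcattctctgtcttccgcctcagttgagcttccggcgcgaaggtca
Cox6a1, chr5:115348929-115349208, minus strand: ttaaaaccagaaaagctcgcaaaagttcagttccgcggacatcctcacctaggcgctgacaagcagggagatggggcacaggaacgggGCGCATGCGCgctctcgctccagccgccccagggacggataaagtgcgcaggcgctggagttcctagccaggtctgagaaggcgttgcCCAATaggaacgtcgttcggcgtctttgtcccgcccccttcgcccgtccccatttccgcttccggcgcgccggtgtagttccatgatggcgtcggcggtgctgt
Cox8a, chr19:7217587-7217866, minus strand: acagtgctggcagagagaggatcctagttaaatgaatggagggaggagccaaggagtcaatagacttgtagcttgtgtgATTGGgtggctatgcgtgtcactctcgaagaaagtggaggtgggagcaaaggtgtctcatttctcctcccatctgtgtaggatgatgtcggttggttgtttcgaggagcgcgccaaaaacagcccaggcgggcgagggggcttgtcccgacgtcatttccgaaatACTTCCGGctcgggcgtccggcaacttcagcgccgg
In the Ndufa11, Atp5k and Cox6a1 windows the capitals mark the palindrome bound by nuclear respiratory factor 1 (NRF1). In Cox8a they mark CCGGAAGT, an ETS site of the kind bound by GABP, on the opposite strand as ACTTCCGG, and in Cox6a1 and Cox8a also CCAAT, the NF-Y box. A second CCGGAAGT match of Cox8a lies further into its window.

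Over the 74 windows of these 69 genes, 5 (6.8%) held the NRF1 palindrome, against 0.97% of 32851 RefSeq windows of the same length. The motif of YY1 was in 4 (5.4%) against 0.63%, and TGACCTTG, bound by oestrogen-related receptors, in 4 (5.4%) against 1.56%. CCGGAAGT was in 5 (6.8%) against 3.89%, and CCAAT in 31 (41.9%) against 37.41%. All motifs were searched on both strands, and matches of different motifs overlapped in 0 of the subunit windows. The windows had a median GC content of 57.3% against 52.7% over all windows. The 5 genes with the NRF1 letters were Ndufa11, Atp5k, Cox6a1, Atp5g2 and Uqcrc1, of which 4 were called higher in LP KO. Of the 5 with the ETS letters (Atp5h, Cox8a, Ndufs3, Uqcr11 and Uqcrh) 1 was, of the 4 with the YY1 letters (Ndufa9, Ndufs4, Ndufs6 and Ndufs7) 1, of the 4 with the oestrogen-related receptor letters (Atp5g3, Atp5l, Ndufs5 and Sdhd) 2, and of the 30 with CCAAT 15. Of the 69 genes, 66 were tested and 36 of those were called higher in LP KO. A match describes letters in a window and not a bound site.

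The summed level of complex I genes was 1554, 1371 and 2372 CPM in the 3 LP KO libraries, against 904, 1003 and 1247 CPM in the 3 LP WT libraries. Complex IV genes summed to 1313, 1101 and 1996 CPM in LP KO, against 757, 799 and 901 CPM in LP WT. In both complexes the lowest LP KO library lay above the highest LP WT library. The same held for complex V, with 2842, 2628 and 3445 CPM in LP KO against 2241, 2041 and 2373 CPM in LP WT. It held narrowly for complex II, with 335, 316 and 396 CPM against 211, 281 and 314 CPM. For complex III the groups overlapped. The mean sums in LP KO were 1.68 times those of LP WT for complex I, 1.8 times for complex IV, 1.34 times for complex V, 1.3 times for complex II and 1.22 times for complex III. Without LP KO mouse 3, the highest of the 3 in each complex, these ratios were 1.39, 1.47, 1.23, 1.21 and 1.03 in the same order of complexes. In ML the sums over all 86 genes were 6059, 6280 and 5840 CPM in KO against 6563, 6534 and 7277 CPM in WT, and the groups did not overlap. In basal cells they were 5737, 5771 and 4464 CPM in KO against 5157, 5282 and 4445 CPM in WT, and the groups overlapped.

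**Figure D1:**
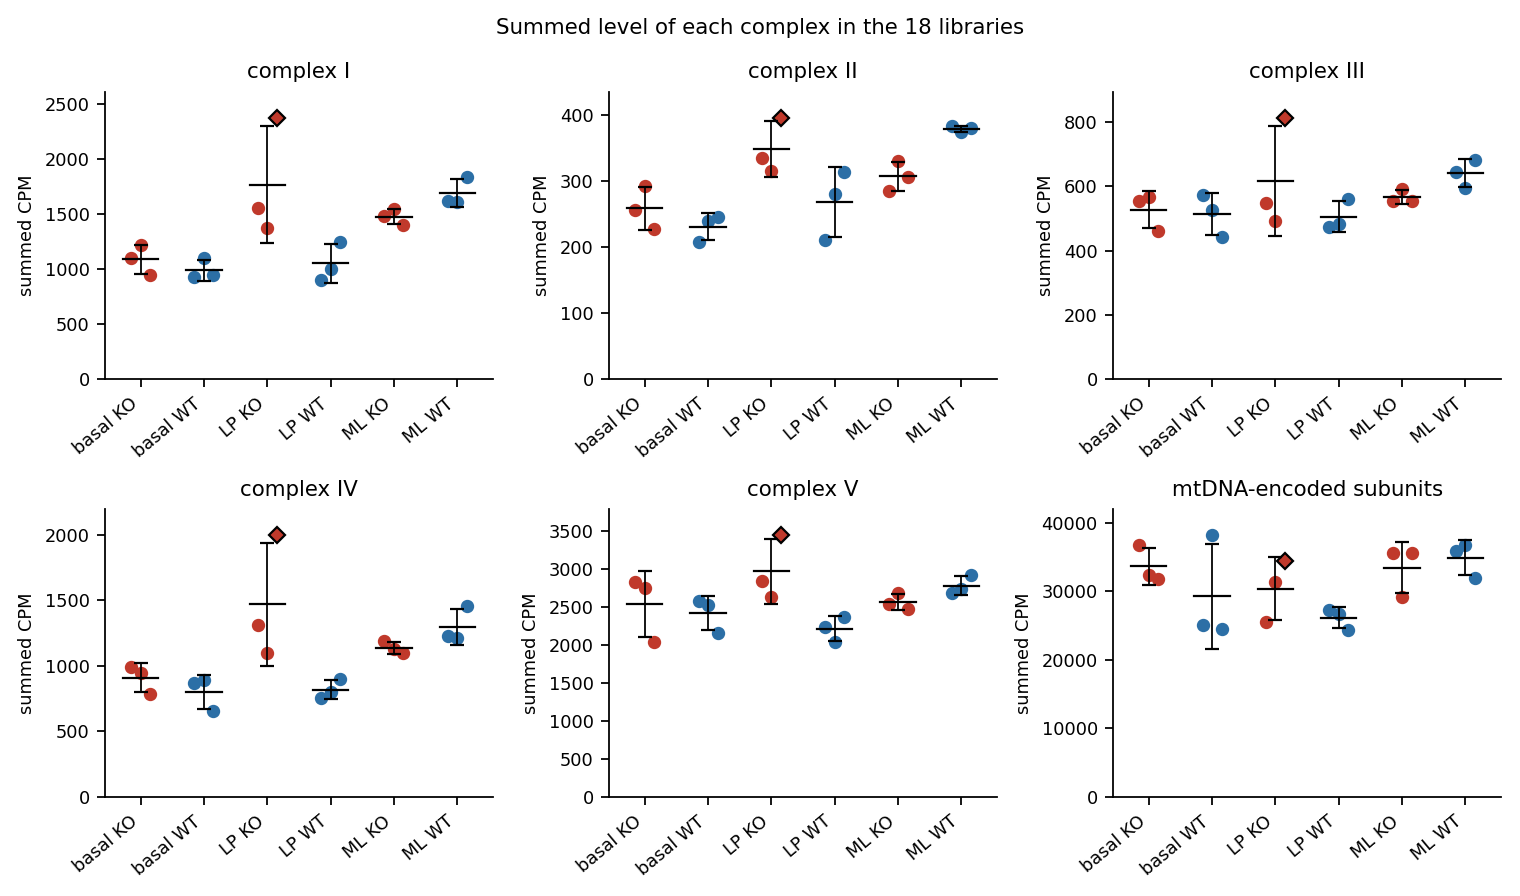
Summed CPM of the genes of each complex, and of the 13 subunits encoded by mitochondrial DNA, in each library, with the mean and SD of each group of 3 as bars and LP KO mouse 3 as a diamond. KO is red and WT is blue. In LP the KO and WT points of complexes I, II, IV and V do not overlap, narrowly so in complex II. LP KO mouse 3 is on top at 2372 CPM in complex I and 1996 CPM in complex IV.

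In LP, the progenitors of the milk-secreting luminal lineage, 41 of the 80 tested subunit genes were called higher in KO than in WT and 1 was called lower, where 8.28% of all genes were called higher and 6.63% lower (edgeR quasi-likelihood test, adjusted p under 0.05 over 16466 genes). The median log2 difference of the 80 was 0.79, against 0.02 over all genes, and 76 of the 80 had a positive one. The KO and WT libraries did not overlap, with KO higher, for 51 of the 80, against 17.7% of all genes, and with KO lower for 1, against 13.4%. Genes of lengths between the quartiles of the members (504.5 to 1156.5 bases) also leaned higher in LP KO, with 271 of 1894 called higher, 45 called lower and a median of 0.40. Without LP KO mouse 3 the count of subunit genes called higher was 18, all of them among the 41, with a median of 0.49. It was 21 without LP WT mouse 1 and 19 without LP WT mouse 2. With the length trend removed it was 23, with length removed and LP KO mouse 3 left out 14, and in a fit of the 6 LP libraries alone 10.

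**Figure D2:**
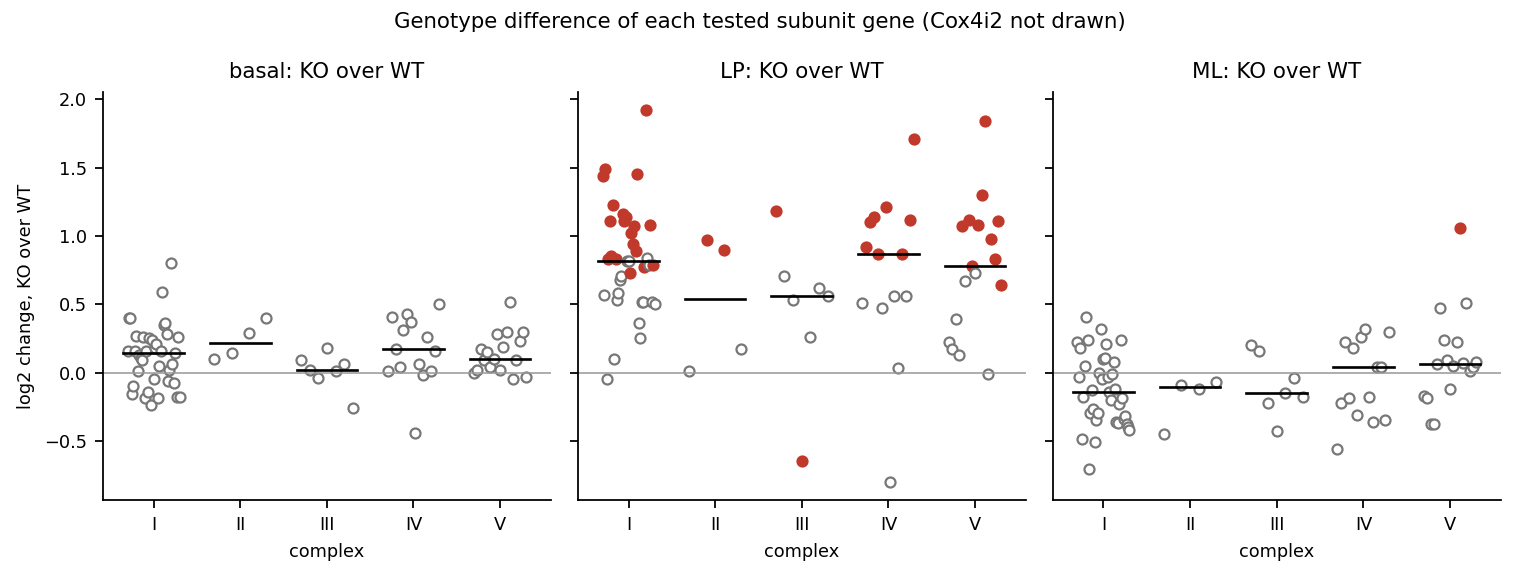
Log2 difference of KO over WT for each tested subunit gene, by complex, in basal, LP and ML cells, with filled points for genes past the threshold and a bar at the median of each complex. Cox4i2, called in ML, is not drawn but enters the medians. In LP the medians of complexes I to V are 0.82, 0.54, 0.56, 0.87 and 0.78, against 0.14, 0.22, 0.02, 0.17 and 0.10 in basal cells and -0.14, -0.10, -0.15, 0.04 and 0.06 in ML.

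Complex I, the NADH dehydrogenase, had 20 of its 37 genes called higher in LP KO, 7 without LP KO mouse 3 and 10 with the length trend removed. The accessory subunits, which surround the catalytic core, made up 18 of these (18 of 28, median 0.85). Of the 7 nuclear core subunits, which carry the flavin and iron-sulphur clusters, 2 were called (median 0.52): Ndufs8 and Ndufv2. Both calls were lost without LP KO mouse 3 (adjusted p = 0.061 for Ndufs8 and 0.22 for Ndufv2), and that of Ndufv2 also with the length trend removed (adjusted p = 0.11). Ndufa11, an accessory subunit of the membrane arm, had 53.5, 44.5 and 80.3 CPM in LP KO, against 18.3, 19.2 and 25.4 CPM in LP WT. Ndufs5, an accessory subunit facing the intermembrane space, had 6.71, 6.47 and 11.4 CPM in LP KO, against 1.73, 1.33 and 3.06 CPM in LP WT. For both genes each KO library lay above each WT library. The log2 differences were 1.49 ± 0.26 for Ndufa11 (SE, adjusted p = 0.001) and 1.92 ± 0.39 for Ndufs5 (adjusted p = 0.0033). Ndufc1, a small membrane subunit, averaged 18.2 ± 4.42 CPM in LP KO and 6.57 ± 1.02 CPM in LP WT (SD, n = 3 each), a log2 difference of 1.45 ± 0.29 (SE, adjusted p = 0.0029). Ndufb8, a subunit of the distal membrane arm, averaged 74.7 ± 18.7 CPM in LP KO and 35.5 ± 6.18 CPM in LP WT (adjusted p = 0.0036). Ndufs8, a core subunit with iron-sulphur clusters, had 41.2, 36.5 and 65.5 CPM in LP KO against 19.6, 18.9 and 28.9 CPM in LP WT, a log2 difference of 1.08 ± 0.26 (SE, adjusted p = 0.011). Ndufs1, the largest core subunit, averaged 71.6 ± 6.12 CPM in LP KO and 60.3 ± 2.55 CPM in LP WT and did not pass the test (adjusted p = 0.35). Ndufb4 is uncertain, since Ndufb4, Ndufb4b and Ndufb4c are near-identical copies among which reads can be split.

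Complex II, succinate dehydrogenase, also belongs to the tricarboxylic acid cycle, and 2 of its 4 genes were called higher in LP KO. Sdhb, its iron-sulphur subunit, had 72.2, 62.2 and 108 CPM in LP KO, against 35.5, 39.7 and 48.5 CPM in LP WT (log2 difference 0.97 ± 0.22, SE, adjusted p = 0.0063). Sdhc, a membrane anchor, had 77.1, 67.2 and 105 CPM in LP KO, against 38.1, 39.4 and 55.4 CPM in LP WT (0.90 ± 0.21, adjusted p = 0.0071). Both were above the WT range in each KO mouse, and both passed without LP KO mouse 3, each with an adjusted p of 0.031. Sdha, the flavoprotein that oxidises succinate, had 176, 178 and 175 CPM in LP KO against 132, 197 and 198 CPM in LP WT. Its log2 difference of 0.01 ± 0.20 had the largest p of the 80 genes.

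Complex III held the exception in LP. Uqcrc2, one of its core proteins, had 96.9, 98.4 and 104 CPM in LP KO, against 157, 154 and 157 CPM in LP WT, with no overlap. Its log2 difference was -0.65 ± 0.18 (SE, adjusted p = 0.021), and -0.78 with the length trend removed (adjusted p = 0.0037). The call was lost without LP KO mouse 1 and without LP WT mouse 2, and over all alternatives the adjusted p reached 0.13. By RefSeq gene positions Uqcrc2 overlaps Pdzd9, so reads of the 2 genes may not be fully told apart. Uqcr10, a small subunit, was the 1 complex III gene called higher, with 34.1, 30.3 and 60.2 CPM in LP KO against 12.5, 19.0 and 23.2 CPM in LP WT (1.18 ± 0.29, adjusted p = 0.012). That call was lost without LP KO mouse 3 (adjusted p = 0.074) and without LP WT mouse 1.

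Complex IV, cytochrome c oxidase, had 8 of its 15 tested genes called higher in LP KO, all of them among the 11 widely expressed subunits (median 0.92). Without LP KO mouse 3 there were 4, and with the length trend removed 5. Ndufa4 had the lowest p of the 80 genes. It had 216, 197 and 324 CPM in LP KO, against 75, 70.5 and 80.5 CPM in LP WT, so the lowest KO mouse was above the highest WT mouse by more than the whole WT range. The log2 difference was 1.71 ± 0.24 (SE, adjusted p = 0.00011), and 1.46 without LP KO mouse 3 (adjusted p = 0.00048). Cox8a, a small transmembrane subunit, had 144, 120 and 201 CPM in LP KO, against 69.7, 71.3 and 73.4 CPM in LP WT (1.12 ± 0.22, adjusted p = 0.0023). Cox6c had 77.7, 67.1 and 110 CPM in LP KO, against 34.9, 31.9 and 43.2 CPM in LP WT (1.21 ± 0.23, adjusted p = 0.0019). Cox6a1, a subunit at the dimer interface, averaged 164 ± 57.2 CPM in LP KO and 74.2 ± 10.9 CPM in LP WT (SD, n = 3 each, adjusted p = 0.0051). Cox4i1, which binds ATP as a regulator of the enzyme and was the highest complex IV gene per length, had 322, 231 and 470 CPM in LP KO against 212, 230 and 275 CPM in LP WT, and did not pass the test (0.51 ± 0.24, adjusted p = 0.15). Cox7a2l, which joins complexes III and IV into supercomplexes, had 84.0, 75.1 and 200 CPM in LP KO against 95, 141 and 116 CPM in LP WT. In that gene only mouse 3 of the KO group exceeded the WT libraries (0.03 ± 0.31, adjusted p = 0.96).

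Complex V, the ATP synthase, had 10 of its 17 genes called higher in LP KO, and 5 without LP KO mouse 3. Of the 5 genes of F1, the part that holds the catalytic beta subunit, 1 was called (Atp5e, median of the 5 genes 0.22). This compares with 4 of 5 membrane subunits (median 0.98), 3 of 4 of the peripheral stalk (0.91) and 2 of 3 genes of the proton-carrying c ring (0.78). Without LP KO mouse 3 these counts were 0 for F1, 2 for the membrane, 2 for the stalk and 1 for the c ring. With the length trend removed they were 1, 2, 2 and 0. Whether the counts differ by position was not tested. Atp5k, a membrane subunit at the dimer interface, had 39.4, 34.0 and 58.6 CPM in LP KO, against 8.51, 10.9 and 16.9 CPM in LP WT (1.84 ± 0.36, SE, adjusted p = 0.0023). Atp5j2, another membrane subunit, had 84.3, 77.1 and 136 CPM in LP KO, against 37.1, 39.4 and 44.3 CPM in LP WT (1.30 ± 0.23, adjusted p = 0.001). Atp5o, the stalk protein known as OSCP, had 110, 93.6 and 159 CPM in LP KO, against 55.1, 48.8 and 64.0 CPM in LP WT (1.11 ± 0.23, adjusted p = 0.0037). In these 3 genes no KO library fell into the WT range. The catalytic beta subunit Atp5b, the highest complex V gene per length, averaged 921 ± 95.8 CPM in LP KO and 817 ± 92.8 CPM in LP WT (0.17 ± 0.21, adjusted p = 0.62). Atp5a1, the alpha subunit, averaged 748 ± 19.0 CPM in LP KO and 642 ± 42.2 CPM in LP WT (0.22 ± 0.19, adjusted p = 0.45). By length, of all tested members under 1000 bases 33 of 57 were called higher (median 0.85), against 8 of 23 of those with 1000 bases or more (median 0.52), and the part of gene length in the pattern by position was not tested.

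The 10 genes called higher in LP KO under all 17 alternatives tried were Ndufa4, Cox6c and Cox8a of complex IV, Ndufa1, Ndufa11, Ndufc1 and Ndufs5 of complex I, and Atp5j2, Atp5k and Atp5o of complex V. Ndufa1, a small accessory subunit, had 28.4, 25.1 and 39.1 CPM in LP KO, against 8.14, 11.2 and 14.3 CPM in LP WT.

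**Figure D3:**
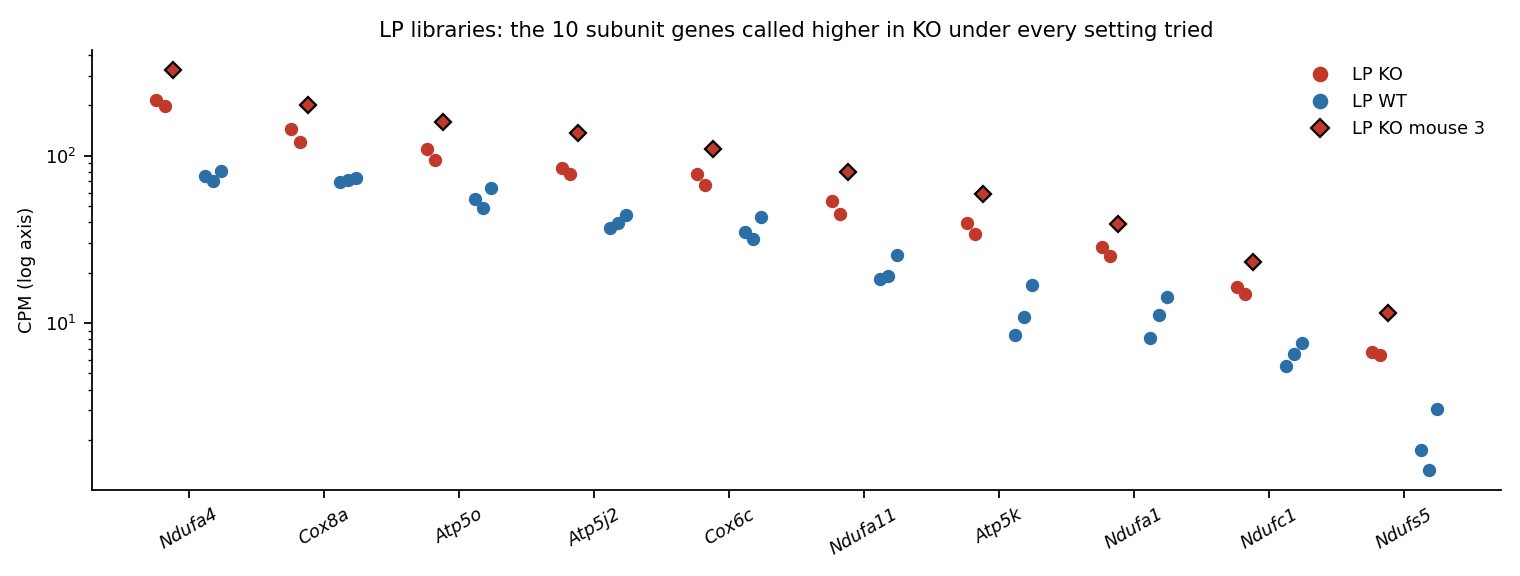
CPM on a log axis of the 10 genes called higher in LP KO under all 17 alternatives, for each of the 3 LP KO libraries (red, LP KO mouse 3 as a diamond) and the 3 LP WT libraries (blue). In each of the 10 genes the lowest KO point is above the highest WT point, as in Ndufa4 with 197 against 80.5 CPM.

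**Figure D4:**
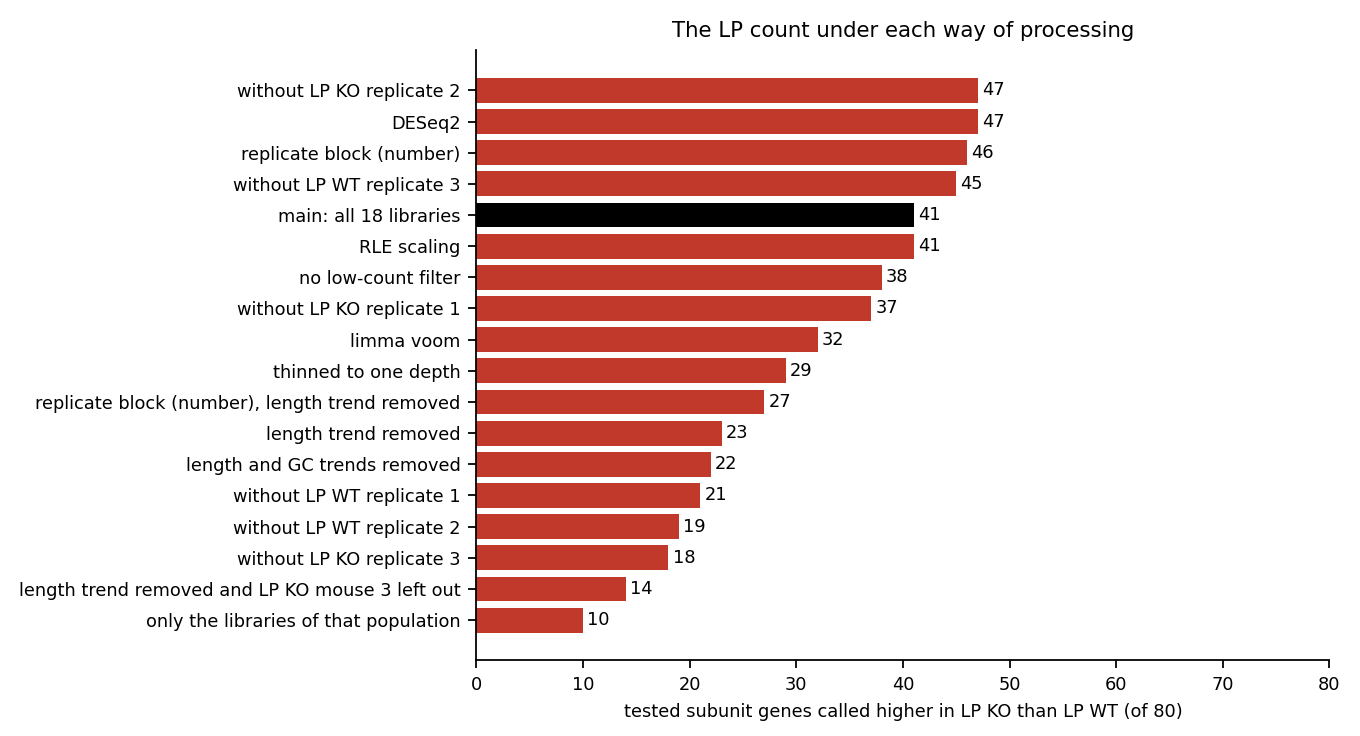
Number of the 80 tested subunit genes called higher in LP KO under the main processing (black) and 17 alternatives (red). The count runs from 10 in a fit of the LP libraries alone to 47 with DESeq2 or without LP KO mouse 2.

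In ML, the hormone-sensing luminal cells, 2 of the 80 genes were called higher in KO, against 11.8% of all genes, and 0 were called lower, against 3.5%. At an unadjusted p under 0.05 there were 2 higher and 4 lower, where 29.4% of all genes passed in either direction. DESeq2 called 1 lower. The median log2 difference was -0.08, and -0.36 over the 7 core subunits of complex I, all of which had a negative value. KO and WT libraries did not overlap, with KO lower, for 18 genes, against 16.2% of all genes, and with KO higher for 4, against 21.6%. Atp5k was called higher here too, with 36.4, 36.5 and 28.3 CPM in ML KO against 8.71, 12.9 and 25.3 CPM in ML WT (1.06 ± 0.35, SE, adjusted p = 0.045), and the call was lost without any 1 of ML KO mice 1 and 2 and ML WT mice 1 and 2. The other was Cox4i2, the oxygen-responsive isoform of Cox4i1, at very low counts: 2, 13 and 13 in ML KO, against 0, 0 and 1 in ML WT. Relative to total counts its level in ML KO was 17.3 times that of ML WT, with an exact 95% counting interval of 2.85 to 706. Its adjusted p of 0.044 passed in 7 of 16 alternatives and was lost on leaving out any 1 ML library, and Cox4i2 overlaps Bcl2l1. Basal cells expressed more of it, at 1.14 to 2.14 CPM in basal KO and 0.848 to 1.29 CPM in basal WT. The part of the basal and LP markers present in ML KO libraries in these 2 calls was not tested.

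Further ML values that did not pass the test are given for the genes of lowest p in each complex. Ndufa6, an accessory subunit, averaged 36.0 ± 2.76 CPM in ML KO and 58.8 ± 7.17 CPM in ML WT (SD, n = 3 each, adjusted p = 0.073). Uqcrc2 averaged 132 ± 19.6 CPM in ML KO and 178 ± 11.3 CPM in ML WT (-0.43 ± 0.18, SE, adjusted p = 0.11). Cox4i1 averaged 262 ± 21.0 CPM in ML KO and 387 ± 47.9 CPM in ML WT (adjusted p = 0.12). Sdha averaged 168 ± 13.5 CPM in ML KO and 230 ± 1.72 CPM in ML WT (adjusted p = 0.14). In these 4 genes the libraries of the 2 genotypes did not overlap, although the fit over all genes called none of them. Ndufb3 had the largest p, with 33.1 ± 6.15 CPM in ML KO and 32.7 ± 6.62 CPM in ML WT.

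In basal cells, which contract to eject milk, 0 of the 80 genes were called higher in KO, against 2.96% of all genes, and 0 lower, against 0.188%, with edgeR. DESeq2 and limma voom called 0 as well, and 3 genes had an unadjusted p under 0.05, all of them higher, where 11.6% of all genes passed in either direction. The median log2 difference was 0.14, with a range of -0.44 to 0.8, and 63 genes had a positive value. The 3 genes were among those called in LP. Ndufa4 averaged 120 ± 22.2 CPM in basal KO and 85.1 ± 16.0 CPM in basal WT (0.50 ± 0.23, SE, adjusted p = 0.41). Ndufc1 averaged 14.7 ± 4.43 CPM in basal KO and 9.72 ± 2.27 CPM in basal WT (adjusted p = 0.41). Ndufs5 averaged 4.05 ± 0.927 CPM in basal KO and 2.42 ± 0.425 CPM in basal WT (adjusted p = 0.42). The lowest p of the other complexes belonged to Sdhc (0.29 ± 0.21), Uqcrc2 (0.18 ± 0.18) and Atp5k (0.52 ± 0.34), and the largest to Atp5a1, with 706 ± 101 CPM in basal KO and 705 ± 41.6 CPM in basal WT.

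Whether the genotype difference depended on the population was tested directly. Between LP and ML, 12 of the 80 genes had a more positive KO-minus-WT difference in LP, against 1.22% of all genes, and 0 a more negative one, against 5.15%. The median of the 80 interaction values was 0.87, against -0.07 over all genes. Complex I held 6 of the 12, complex IV 3, complex II 2 and complex V 1. Cox8a had the lowest p (1.47 ± 0.30, SE, adjusted p = 0.0045): its level was 155 ± 41.9 CPM in LP KO and 71.5 ± 1.87 CPM in LP WT, against 126 ± 13.4 CPM in ML KO and 161 ± 7.36 CPM in ML WT. Ndufa4 followed (1.41 ± 0.33, adjusted p = 0.01) and was past the threshold in all 22 alternatives. Ndufb8 (1.21 ± 0.31, adjusted p = 0.021), Cox6a1 (1.34 ± 0.35, adjusted p = 0.024) and Ndufs8 (1.39 ± 0.37, adjusted p = 0.026) came next. The count fell to 2 without LP KO mouse 3 or LP WT mouse 2, and to 3 without LP WT mouse 1, ML KO mouse 3 or ML WT mouse 3. It was 4 without ML KO mouse 1 and 5 without ML KO mouse 2 or ML WT mouse 1, and rose to 21 without LP KO mouse 2.

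Between LP and basal cells 0 genes passed in either direction, against 0.389% and 0.704% of all genes, although the median of the 80 values was 0.68 and 31 were higher and 1 lower at an unadjusted p under 0.05, which 14.0% of all genes passed. DESeq2 called 2 higher and 1 lower. The smallest adjusted p was that of Ndufa4 (1.21 ± 0.33, SE, adjusted p = 0.082). Between ML and basal cells 0 passed in either direction, against 4.5% and 1.03%, with 1 higher and 3 lower at an unadjusted p under 0.05, which 17.3% of all genes passed. So the LP difference was set apart from the ML difference for 12 genes and from the basal difference for none, by edgeR.

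The WT libraries show where these genes stood in the mice labelled wildtype. Per length, the highest complex I gene was Ndufb9 in basal WT (72.4 ± 12.9 FPKM, which is CPM per kilobase of gene length), Ndufa6 in LP WT (75.6 FPKM) and Ndufa7 in ML WT (181 FPKM). Cox4i1 led complex IV, with 286 FPKM in basal WT, 352 FPKM in LP WT and 569 FPKM in ML WT, and Atp5b led complex V, with 513, 435 and 555 FPKM in the same order. Uqcrh, the hinge protein of complex III, led its complex in all 3 populations (239, 198 and 246 FPKM). Sdhd, a membrane anchor, was the lowest complex II gene in all 3, at 4.51, 5.88 and 7.56 FPKM. The lowest complex I gene was Ndufs5 in basal WT and Ndufb4 in LP WT and ML WT, and the lowest of complex IV was Cox4i2 in basal WT and ML WT and Cox6b2 in LP WT.

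WT ML exceeded WT basal cells in 32 of the 80 genes, against 25.7% of all genes, and was below them in 2, against 28.9%. The median log2 difference was 0.52. Complex I gave 22 of the 32, among them 6 of its 7 core subunits (median of the core 0.97). Ndufa7, an accessory subunit, had 76.0, 76.0 and 109 CPM in ML WT, against 32.5, 26.2 and 22.1 CPM in basal WT (1.69 ± 0.27, SE, adjusted p = 3.2e-05). Sdha had 231, 228 and 229 CPM in ML WT, against 92.6, 113 and 131 CPM in basal WT (adjusted p = 0.00028). The groups were far apart in both genes. The gamma subunit Atp5c1, the rotor of the F1 head, averaged 234 ± 14.8 CPM in ML WT and 101 ± 13.7 CPM in basal WT (1.21 ± 0.20, adjusted p = 5.6e-05), and Cox4i1 averaged 387 ± 47.9 CPM in ML WT and 194 ± 29.6 CPM in basal WT (adjusted p = 0.0016). Both genes below basal cells were restricted isoforms, Cox7a1 and Cox4i2. Without ML WT mouse 3 the count lower was 4, and with the length trend removed 21 genes were higher and 4 lower.

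WT LP was below WT ML in 30 of the 80 genes, against 16.1% of all genes, and above it in 2, against 17.6%, with a median of -0.61. Complex I gave 16 of the 30 and complex IV 8. Ndufc1 averaged 6.57 ± 1.02 CPM in LP WT and 23.2 ± 3.09 CPM in ML WT (-1.80 ± 0.30, SE, adjusted p = 0.00011). Ndufa7 averaged 32.8 ± 7.54 CPM in LP WT and 87.2 ± 19.3 CPM in ML WT (-1.41 ± 0.27, adjusted p = 0.0005). Cox8a averaged 71.5 ± 1.87 CPM in LP WT and 161 ± 7.36 CPM in ML WT (-1.17 ± 0.22, adjusted p = 0.00034). Sdhc (-0.76), Uqcr10 (-0.97), Cox5a (-0.99) and Atp5j (-0.80) were further genes lower in LP WT in complexes II to V. The 2 above ML were Cox7a1, with 8.23 ± 2.75 CPM in LP WT and 3.09 ± 0.828 CPM in ML WT (adjusted p = 0.012), and Cox4i2, with 38 counts over the LP WT libraries against 1 over the ML WT libraries. The count lower was 13 without ML WT mouse 3 or LP WT mouse 1 and 16 without LP WT mouse 2, and the count higher was 1 without ML WT mouse 3 or LP WT mouse 2. The interaction of LP and ML uses these same WT libraries, so the 2 results are not independent.

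WT LP and WT basal cells were closer under the main processing, with 5 genes higher in LP, against 17.3% of all genes, and 3 lower, against 19.8%, and a median of -0.05. More genes were lower in LP with the length trend removed, and more still with length and GC trends removed, as given below. The 5 were Ndufa6 (0.93), Ndufa10 (0.68), Ndufc2 (0.83), Sdha (0.65) and Atp5c1 (0.60). Their number was 0 without LP WT mouse 3, 2 without LP WT mouse 2 and 3 without basal WT mouse 1 or 2. The 3 lower in LP were Ndufa1 (-1.22 ± 0.32, SE, adjusted p = 0.0046), Uqcrq (-0.88, adjusted p = 0.038) and Cox6b2 (-2.65 ± 0.58, adjusted p = 0.0012), and there were 5 without basal WT mouse 3. Ndufa1 averaged 11.2 ± 3.07 CPM in LP WT and 26.3 ± 5.06 CPM in basal WT (SD, n = 3 each). Ndufa1 is 1 of the 10 genes called higher in LP KO under all alternatives, and it overlaps Rnf113a1.

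**Figure D5:**
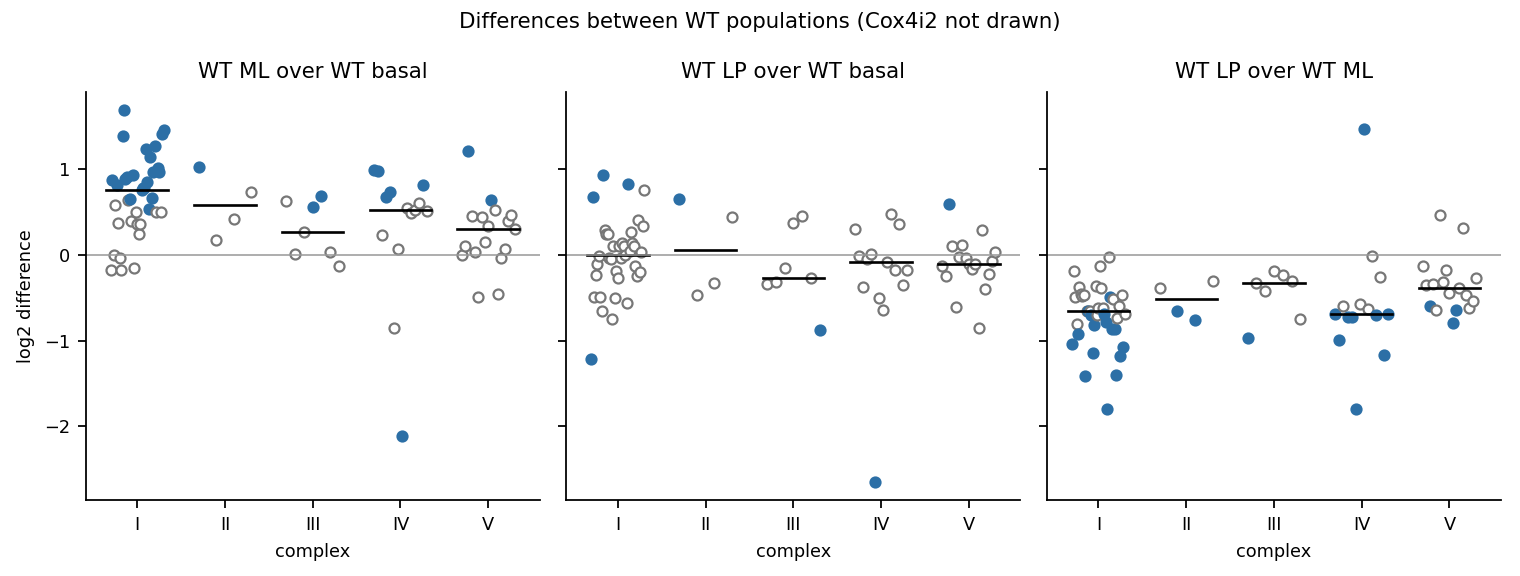
Log2 difference of each tested subunit gene between WT populations, by complex, with filled points for genes past the threshold and a bar at the median of each complex. Cox4i2, called for ML over basal and for LP over ML, is not drawn but enters the medians. Complex I has a median of 0.76 for ML over basal, near 0 for LP over basal, and -0.66 for LP over ML.

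Among KO libraries the sum over all subunit genes averaged 7174 ± 1636 CPM in LP, 6060 ± 220 CPM in ML and 5324 ± 745 CPM in basal cells (SD, n = 3 each), and the LP and ML libraries overlapped. KO LP exceeded KO basal cells in 38 of the 80 genes, against 21.4% of all genes, and was below them in 3, against 23.6%, with a median of 0.59. Complex I gave 24 of the 38. Ndufb8 averaged 74.7 ± 18.7 CPM in LP KO and 34.4 ± 7.1 CPM in basal KO (1.11, adjusted p = 0.00037), and Ndufa4 averaged 246 ± 68.4 CPM in LP KO and 120 ± 22.2 CPM in basal KO (1.03, adjusted p = 0.0011). The 3 lower genes were Cox6b2, Cox7a1 and Uqcrc2, the last at 99.6 ± 3.53 CPM in LP KO and 136 ± 15.9 CPM in basal KO (-0.45 ± 0.18, SE, adjusted p = 0.044). The count higher was 12 without LP KO mouse 3, 19 without basal KO mouse 3 and 25 without basal KO mouse 1, and 10 with the length trend removed. The count lower was 1 without basal KO mouse 1, LP KO mouse 1 or LP KO mouse 2.

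KO LP and KO ML differed in 3 genes, all higher in LP, against 5.33% of all genes, and 0 were lower, against 10.5%. The median was 0.28, and 70 of the 80 had a positive value. The 3 were Ndufa4 (0.72 ± 0.23, SE, adjusted p = 0.038), Ndufa11 (0.82, adjusted p = 0.033) and Cox4i2, with 116 counts over the 3 LP KO libraries against 28 over the 3 ML KO libraries. Without LP KO mouse 3 or ML KO mouse 2 the count was 0, and without ML KO mouse 3 it was 1. KO ML exceeded KO basal cells in 10 genes, against 18.1%, and was below them in 3, against 20.4%. Complex I gave 8 of the 10, led by Ndufa7 with 71.1 ± 13.9 CPM in ML KO and 29.1 ± 1.29 CPM in basal KO (1.29, adjusted p = 0.00076). The 3 lower were the restricted isoforms Cox4i2, Cox6b2 and Cox7a1. The count of 10 was 6 without ML KO mouse 3, 4 without basal KO mouse 1 or ML KO mouse 1, and 3 without ML KO mouse 2 or basal KO mouse 3.

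Complex IV has restricted isoforms beside the widely expressed ones, and their levels differed widely. Cox6b2, known as the testis isoform of Cox6b1, had 5.19, 4.36 and 7.46 CPM in basal KO and 4.68, 4.95 and 2.35 CPM in basal WT, against at most 1.42 CPM in LP libraries. Cox6b1 was far above it throughout, at 60.9 to 83.1 CPM in basal KO and 43.5 to 70.0 CPM in basal WT. Cox7a1, the heart and skeletal muscle isoform, had 10.9, 6.04 and 11.5 CPM in basal KO and 8.26, 18.3 and 11.2 CPM in basal WT. It had 4.92, 3.04 and 6.06 CPM in LP KO against 7.65, 11.2 and 5.82 CPM in LP WT, where the groups overlapped and the test was not passed (-0.80 ± 0.38, SE, adjusted p = 0.16). In ML it was between 2.31 and 4.46 CPM. Per length, Cox7a1 was close to its widely expressed partner Cox7a2 in basal cells, with 25.9 ± 8.18 FPKM for Cox7a1 and 35.1 ± 8.86 FPKM for Cox7a2 in basal KO, and 34.4 ± 14.0 and 33.6 ± 7.72 FPKM in basal WT (SD, n = 3 each). Cox7a2 averaged 35.5 ± 8.54 CPM in LP KO and 24.0 ± 3.35 CPM in LP WT (adjusted p = 0.14). Ndufa4l2, the hypoxia-induced relative of Ndufa4, was at most 0.865 CPM, in a basal KO library, and at most 0.277 CPM in any luminal library. Cox8b reached at most 0.247 CPM and Cox6a2 at most 0.108 CPM, so these isoforms were near the floor of detection at this depth, and Cox7b2 had 0 counts in all 18 libraries.

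The levels of the subunits encoded by mitochondrial DNA overlapped between the genotypes in LP. Their 13 genes summed to 25470, 31313 and 34411 CPM in LP KO, against 27306, 26737 and 24426 CPM in LP WT, and the groups overlapped. Of the 13, 1 was called higher, ND3 of complex I, which averaged 195 ± 73.2 CPM in LP KO and 77.1 ± 10.9 CPM in LP WT (1.34 ± 0.32, SE, adjusted p = 0.0091), and the median of the 13 was 0.35. The ratio of mitochondrially encoded to nuclear subunit CPM was 3.86, 5.3 and 3.81 in LP KO, against 5.96, 5.8 and 4.53 in LP WT, and overlapped as well. LP KO mouse 3 again stood apart, with ND4L at 91.6 CPM against 299 and 353 CPM in the other LP KO libraries. Cyc1, the cytochrome subunit of complex III that the symbol rule does not reach, had 104, 99.8 and 134 CPM in LP KO, against 53.0, 55.5 and 63.6 CPM in LP WT (0.97 ± 0.21, adjusted p = 0.0047). It was the 1 gene called of 10 tested subunits and carriers outside the rule. Ndufab1, the acyl carrier subunit of complex I, and Cycs, cytochrome c itself, had log2 differences of -0.58 ± 0.33 and -0.35 ± 0.27 and did not pass.

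Assembly factors and other mitochondrial genes were counted in the same LP comparison, where 8.28% of all genes were called higher and 6.63% lower. Of 18 assembly factors of complex I 2 were called higher, Ndufaf5 (1.34) and Acad9 (0.76), of 24 of complex IV 3 (Cox14, Cmc2 and Cox17), of 4 of complex II 1 (Sdhaf4) and of 5 of complex V 1 (Fmc1). Among 6 of complex III, Uqcc2 was called higher (1.39 ± 0.33, SE, adjusted p = 0.0092) and Ttc19 lower (16.8 ± 1.45 CPM in LP KO and 33.8 ± 17 CPM in LP WT, adjusted p = 0.028). Genes of mitochondrial import and folding had 4 of 21 called higher (median 0.57), with Tomm6 of the outer membrane translocase at 53.8 ± 20.1 CPM in LP KO and 21.0 ± 3.11 CPM in LP WT (SD, n = 3 each, adjusted p = 0.0013). The mitochondrial ribosome had 13 of 77 called higher and 1 lower (median 0.60), and the cytosolic ribosome 3 of 85 higher and 1 lower (median 0.17). The tricarboxylic acid cycle had 1 of 17, the malate dehydrogenase Mdh2, at 235 ± 53.9 CPM in LP KO and 118 ± 19.3 CPM in LP WT (adjusted p = 0.0083). Of 11 antioxidant and uncoupling genes Prdx5 and Txn2 were called higher and Ucp3 lower, and Nnt, the transhydrogenase, averaged 33.8 ± 1.95 CPM in LP KO and 48.8 ± 9.68 CPM in LP WT (adjusted p = 0.14).

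Regulators of mitochondrial gene expression include NRF1 and GABP, whose binding letters were sought above, and the PGC-1 coactivators. In LP, of 20 tested, 0 were called higher, against 8.28% of all genes, and 2 lower, against 6.63%. The 2 were the coactivator Ppargc1b (-1.35 ± 0.42, SE, adjusted p = 0.035) and Polg, the polymerase of mitochondrial DNA (-0.78, adjusted p = 0.038). Nrf1 averaged 36.0 ± 4.42 CPM in LP KO and 34.1 ± 3.86 CPM in LP WT (adjusted p = 0.84). Gabpa, the DNA-binding part of GABP, averaged 65.4 ± 13.8 CPM in LP KO and 86.0 ± 6.91 CPM in LP WT (adjusted p = 0.21), and it overlaps Atp5j. Esrra (0.46, adjusted p = 0.39) and Tfam (-0.17, adjusted p = 0.68) did not pass. Ppargc1a, the coactivator PGC-1 alpha, had 6.17, 7.25 and 5.5 CPM in LP KO against 2.47, 4.67 and 2.45 CPM in LP WT, without overlap, and did not pass either (1.01 ± 0.57, adjusted p = 0.24). In ML it was called higher, the 1 call among the 20 regulators there, where 11.8% of all genes were called higher, with 50, 176 and 141 counts in ML KO against 0, 6 and 3 in ML WT (adjusted p = 0.0009). Relative to total counts its level in ML KO was 25.1 times that of ML WT, with an exact 95% counting interval of 13.1 to 55.4, in libraries that also hold the basal and LP markers given above. In basal cells 0 genes of these further lists were called.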

How the data were processed

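The data are whole-number read counts per gene, which the authors obtained, per the submitters' processing notes, with featureCounts on mm10, together with a gene length per the file headers. Libraries were made with a TruSeq RNA v2 kit, which does not mark strand, per the labels' protocols. The aligner and annotation are not stated. The deposited table equalled the 18 single-library files, and 1904 identifiers (1.6% of counts) had no symbol.

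Counts were scaled by TMM (factors 0.832 to 1.186) and filtered with filterByExpr to 16466 genes. They were fitted with edgeR 4.0.16 in R 4.3.3 by robust quasi-likelihood with 1 mean per group over the 18 libraries (common biological variation 33.3%). P-values were adjusted by Benjamini-Hochberg over all genes of a contrast, with a threshold of 0.05. CPM values use the scaled totals, and FPKM divides them by the gene length given in kilobases. Levels over 3 replicates are means with SD. Intervals on counts cover counting error only. DESeq2 1.42.0, limma voom 3.58.1, RLE scaling, no filter, thinning to 5973389 counts, length and GC trends, blocks and left-out libraries were the alternatives, and the fit was checked on simulated data. The alternative that removes the length trend and leaves out LP KO mouse 3 was chosen after seeing the data.

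Populations of the same mouse deviated together (correlation of deviations 0.095 to 0.334, over 0.1 in 17 of 18 pairs), and the labels give the mouse. Replicate pairs were distinct (lowest chi-square per degree of freedom 23.9).

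Values of 1 of the 12 genes of the LP and ML interaction are not reported here. The genes and lists were chosen with earlier results of these data known. Genes were named by rule: up to 4 genes per complex of lowest p in each genotype comparison, with the 2 of lowest p given as values where none passed, up to 5 per interaction and 3 per complex between populations, the complex IV isoforms, the highest and lowest genes per length, the gene of largest p, those not tested, and up to 3 per further list with fixed regulators. Atp5b, Atp5a1, Ndufs1, Ndufs8 and Ndufa1 in LP were named in addition, after their values were seen.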

Additional observations from a re-analysis of the deposited data

Results flagged for a closer look

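For 12 subunit genes the KO-minus-WT difference was larger in LP than in ML by a test of that difference (edgeR interaction, adjusted p under 0.05). On the log2 scale the differences between the 2 effects were 1.47 for Cox8a, 1.46 for Ndufc1, 1.46 for Ndufb2, 1.41 for Ndufa4, 1.39 for Ndufs8, 1.34 for Cox6a1, 1.31 for Ndufa11, 1.21 for Ndufb8, 1.08 for Atp5j2, 1.05 for Sdhb and 1.02 for Sdhc, of the 11 genes given here. Ndufb2, an accessory subunit, had 26.7, 21.5 and 41.7 CPM in LP KO against 13.0, 12.8 and 14.3 CPM in LP WT, and 21.1, 27.1 and 24.1 CPM in ML KO against 31.4, 24.8 and 33.0 CPM in ML WT. There the ML groups overlapped. Ndufa4 passed under all 22 alternatives. Of these genes, those other than Ndufa4 and Cox8a each lost its call on leaving out at least 1 of the 12 luminal libraries, LP KO mouse 3 among them. The ML KO libraries that enter these values hold basal and LP markers, and the part of those in the interaction was not tested.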

How the results depend on the processing

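Counts of the 80 genes called are given here. KO over WT in LP called 41 higher. The count was 23 with the length trend removed, 22 with length and GC trends removed, 14 with length removed and LP KO mouse 3 left out, and 10 in a fit of the LP libraries alone. The 1 gene lower in LP KO became 0 without the low-count filter, after thinning and in the LP libraries alone, and 2 with length and GC removed. The 2 genes higher in ML KO became 1 without the filter, with limma voom and after thinning, and 0 in the ML libraries alone, while genes lower in ML KO numbered 2 in the ML libraries alone and 1 after thinning, with DESeq2 and with length and GC removed. For the interaction of LP against ML, 12 genes became 19 with DESeq2, 6 without the filter or with limma voom, 5 after thinning, 3 with length removed, and 2 with length and GC removed or with length removed and LP KO mouse 3 left out. For LP against basal DESeq2 called 2 higher and 1 lower.

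Between WT populations, ML over basal had 21 higher and 4 lower with length removed, and 16 and 9 with length and GC removed. LP over basal had 5 lower with RLE scaling, 7 with DESeq2, 13 with length removed and 23 with length and GC removed. Between KO populations, LP over basal had 10 higher with length removed or with length and GC removed, 5 with length removed and LP KO mouse 3 left out, and 7 lower with length and GC removed, where Uqcr10 changed sign, to -0.05 (adjusted p = 0.86). ML over basal had 6 higher with length and GC removed. LP over ML had 1 higher with length or length and GC removed, and 0 after thinning or with length removed and LP KO mouse 3 left out. Its genes lower in LP were 2 with length removed, 3 with length and GC removed, and 1 with DESeq2 or with length removed and LP KO mouse 3 left out. The cause of these differences was not tested.

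Equal replicate numbers in KO and WT are different mice, and the correlation of their deviations was -0.098 to 0.258, over 0.1 in 4 of 9 pairs, against -0.318 to 0.137 and 2 of 18 for different numbers. Not every pair passed 0.1, and the main processing did not pair the samples by number. Whether libraries of equal number share a batch was not tested. With the replicate number as a block 46 genes were higher in LP KO, and with this block and length removed 27 were, with 2 lower in ML KO. A block on the mouse in the other contrasts moved no count by over 1.5 times. The mouse block with length removed gave, for LP over ML, an interaction count of 7 higher and 1 lower, for LP over basal an interaction count of 1 lower, for KO LP over basal 13 higher, for KO LP over ML 4 lower, for WT LP over basal 16 lower and for WT ML over basal 5 lower.

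Leaving out 1 library at a time gave 18 to 47 higher and 0 to 1 lower for LP KO, 0 to 1 higher for ML KO, and 0 for basal KO. The interaction of LP and ML ranged over 2 to 21 higher. WT LP over ML ranged over 1 to 2 higher and 13 to 32 lower, WT LP over basal over 0 to 6 and 2 to 5, and WT ML over basal over 22 to 30 and 2 to 4. KO LP over basal ranged over 12 to 41 and 1 to 3, KO LP over ML over 0 to 4 higher, and KO ML over basal over 3 to 9 higher. RLE and DESeq2 scaling moved the median of all genes by -0.14 for WT ML over basal and by -0.11 and -0.12 for the interaction of LP and ML. Of the named genes' values under alternatives, 1090 kept their direction and side of the threshold, 303 lost the call and 1 reversed. Low isoforms such as Cox4i2 rest on few counts, with a total of 1 in the ML WT libraries.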

Other observations

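Outside the comparisons, the levels of Ndufa4 per library place LP KO above the other 5 groups. Its lowest LP KO library had 197 CPM, and the highest library of the others was an ML KO library with 180 CPM. In LP WT, at 70.5 to 80.5 CPM, it overlapped basal WT, at 67.0 to 97.1 CPM. Atp5k lay between 22.2 and 58.6 CPM in the KO libraries of all 3 populations, against 8.51 to 16.9 CPM in LP WT, 8.71 to 25.3 CPM in ML WT and 16.2 to 26.2 CPM in basal WT. In LP KO mouse 3, ND6, the 1 mitochondrial subunit gene on the light strand, had 974 CPM, against 354 and 490 CPM in the other LP KO libraries and 352 to 394 CPM in LP WT.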
